A study of Mus musculus with 16 samples.

Results

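The collagen genes were all genes of the array whose symbol has the form Col, number, a, number, taken from probe sets named for that gene alone. They numbered 42 genes of 26 collagen types, measured by 68 probe sets, of 17097 genes and 45141 probe sets on the array. Membership rested on the gene name alone and used no measured value. All 42 symbols were found in the RefSeq gene table.

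They were measured in fibroblasts of the colon from C57BL/6 mice, 4 by the labels, carrying Gli1CreERT2-ZsGreen. In these mice a tamoxifen-dependent Cre recombinase made in Gli1-expressing cells switches on the green protein ZsGreen. Gli1 is a transcription factor of the Hedgehog pathway. Every mouse had 1 mg tamoxifen by intraperitoneal injection on each of 5 consecutive days and was killed on day 6, so no group is without tamoxifen. The sources used here give no age for the mice. Cells without Epcam, CD45 and CD31 on their surface and with gp38 (podoplanin) were sorted into 4 populations: Sca1+ with high ZsGreen (reporter-high), Sca1+ with dim ZsGreen (reporter-dim), Sca1+ without ZsGreen (Sca1+ reporter-negative) and Sca1- without ZsGreen (Sca1-). By the labels, each population was measured on 1 array for each of the 4 mice, 16 arrays in all. Each array started from 2 ng of RNA that was amplified before hybridization. ZsGreen marks cells in which Cre was active during the injections, so it need not follow Gli1 at the time of the sort. On these arrays Gli1 read 2255 to 2978 in reporter-high and 1961 to 2705 in reporter-dim cells. It read 889 to 1545 in Sca1+ reporter-negative and 684 to 1384 in Sca1- cells.

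Collagens are proteins of 3 chains wound into a triple helix, and each gene makes 1 chain. Fibrillar collagens (types I, II, III, V, XI, XXIV and XXVII) form the cords that give tissue its tensile strength, and FACIT collagens (types IX, XII, XIV, XVI, XIX, XX and XXII) sit on the surface of those cords. Type IV forms the sheet of the basement membrane, type VI a beaded filament beside it, and the multiplexins XV and XVIII join basement membranes to the stroma around them. In the gut wall fibroblasts and muscle make most of this matrix.

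Levels are given as signal, the array's brightness on a linear scale, and differences as log2 of the 1st population over the 2nd between means of 4 arrays. A gene was called where limma's adjusted p over all 17097 genes was under 0.05. Each gene was read from its brightest probe set, and brightness is not compared between genes. Of the 42 genes, 29 lay above the highest of 23 nonspecific control probe sets on all 16 arrays and 11 on some. Col6a5 and Col26a1 lay above it on none. The sort makes bulk samples, so fewer cells of a type and less RNA per cell cannot be told apart.

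The arrays were alike in median signal, at 661 to 686. The 12 fibroblast markers, 3 of which (Dcn, Lum and Dpt) are also counted among the fibril partners below, averaged a log2 signal of 13.92 ± 0.06 on reporter-high arrays, 13.78 ± 0.12 on reporter-dim arrays, 13.27 ± 0.16 on Sca1+ reporter-negative arrays and 12.78 ± 0.40 on Sca1- arrays (SD, n = 4). By Xist and the Y-linked genes Eif2s3y and Kdm5d, the 4 arrays labelled mouse 2 did not come from 1 animal: its reporter-high and reporter-dim arrays had Y-linked signal, as did the 4 arrays of mouse 1, and its other arrays had high Xist. Counts are therefore also given without mouse 2. Where mouse is used as a block below, the block follows the labels, and for mouse 2 it joins arrays of more than 1 animal. Arrays with Y-linked signal thus made up 2 of the 4 reporter-high arrays, 2 of the reporter-dim arrays, 1 of the Sca1+ reporter-negative arrays and 1 of the Sca1- arrays.

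Across the 4 populations 23 of the 42 collagens differed by limma's F test, where 32.3% of all genes did. Of these 23 genes 17 had their highest mean in reporter-high cells, 2 in reporter-dim and 4 in Sca1- cells, and 16 had their lowest mean in Sca1- cells. The means of 15 stood in 1 order, reporter-high above reporter-dim above Sca1+ reporter-negative above Sca1-. Of the 19 that did not pass, 16 had no population mean above 1000. Without mouse 2 the F test called 10 collagens, where 15.2% of all genes were called.

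**Figure D1:**
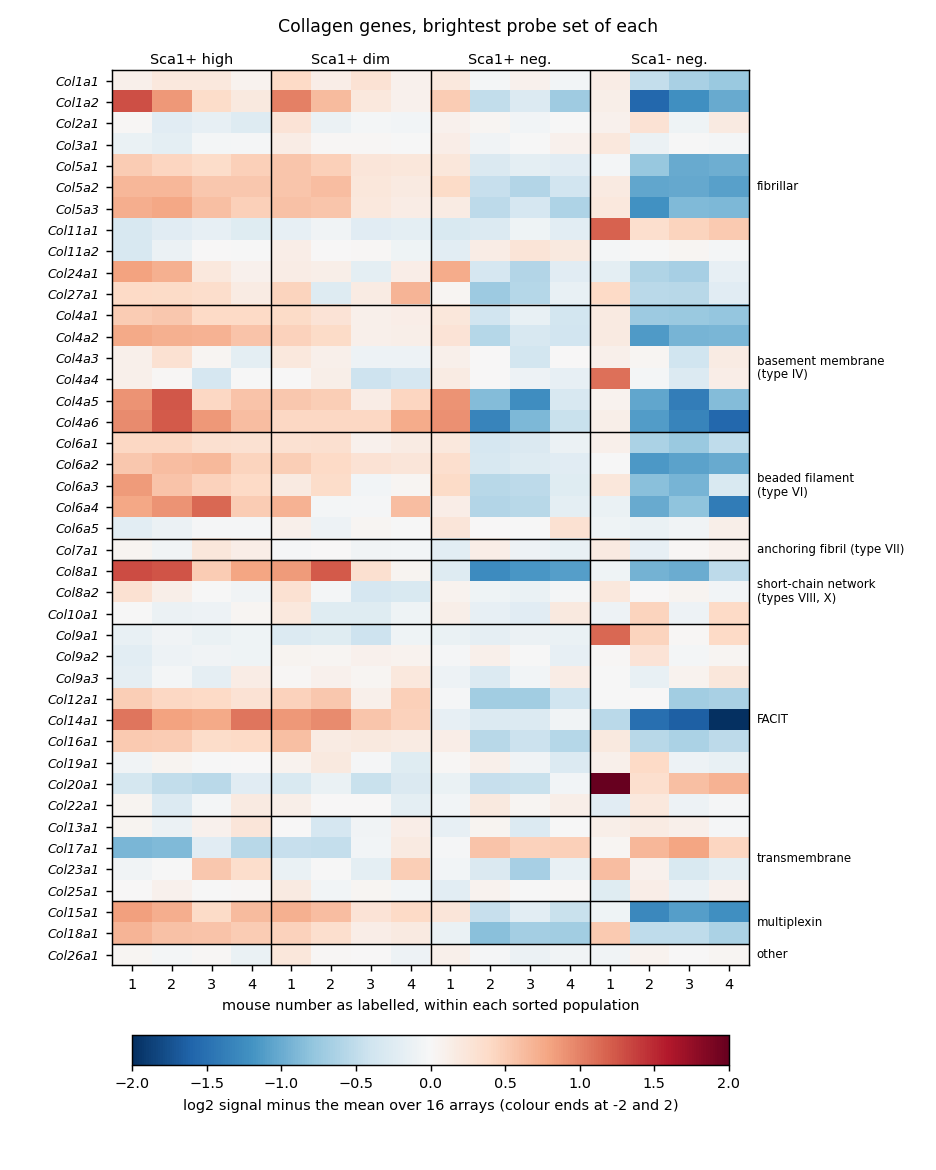
Log2 signal of the 42 collagen genes (rows, grouped by class) on the 16 arrays (columns, 4 populations from reporter-high at the left to Sca1- at the right), each minus the gene's mean over all arrays. Rows of genes called higher in reporter-high than in Sca1- cells are mostly red at the left and blue at the right. In most of these rows the arrays of mouse 1 in both negative populations are redder than those of the other mice. Other fibrillar, type IV and type VI rows, such as Col3a1 and Col4a4, do not show this, and Col17a1, Col11a1, Col9a1 and Col20a1 run the other way.

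Reporter-high cells had 18 collagens higher and 1 lower than Sca1+ reporter-negative cells, where 17.0% of all genes were called higher and 13.9% lower. The collagens' median difference was 0.33, against -0.002 for all genes. The 18 were 4 of 11 fibrillar genes, 4 of 6 of type IV, 4 of 5 of type VI, 3 of 9 FACIT genes, both multiplexins and Col8a1. The gene called lower was Col17a1. With mouse as a block 20 were called higher and 2 lower, where 19.0% and 15.5% of all genes were, and without mouse 2 the counts were 5 and 1, where 8.1% and 7.89% were. Without mouse 2's array of Sca1+ reporter-negative cells 9 were higher, where 13.6% of all genes were, and without mouse 3's 10, where 13.9% were.

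Reporter-dim cells had 2 collagens higher, Col8a1 and Col12a1, and 0 lower than Sca1+ reporter-negative cells by limma, against 0.901% and 0.608% of all genes. At an unadjusted p under 0.05 there were 16 higher and 1 lower, where 10.1% and 11.6% of all genes were. With mouse as a block 11 were called higher and 1 lower, where 6.18% and 7.78% of all genes were, and without mouse 2 the counts were 0 and 0, where 0.00585% and 0.0526% were. Between reporter-high and reporter-dim cells limma called 0 collagens higher and 0 lower, against 0.485% and 0.93% of all genes, with 0 and 2 at an unadjusted p under 0.05, where 9.57% and 7.32% of all genes were. Without mouse 2 limma called 0 and 0 collagens there, and 0.0% of all genes in either direction. The block gave 0 and 0 there too, where 2.82% and 4.67% of all genes were called.

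Against Sca1- cells, reporter-high cells had 20 collagens higher and 5 lower, where 19.2% and 16.7% of all genes were called. With mouse as a block these were 21 and 6, where 20.9% and 18.2% of all genes were. Reporter-dim cells had 17 higher and 4 lower, where 7.96% and 5.89% were, and with the block 20 and 4, where 10.7% and 11.3% were. Sca1+ reporter-negative cells had only Col14a1 higher, and Col20a1, Col11a1 and Col9a1 lower, where 1.22% and 1.23% were. With mouse as a block that last comparison gave 5 higher, adding Col1a1, Col5a1, Col6a2 and Col15a1, and 3 lower, where 2.06% and 1.65% were. Without mouse 2 reporter-high cells had 15 higher and 3 lower than Sca1- cells, where 12% and 10.4% of all genes were. Reporter-dim cells then had 3 and 2, where 2.04% and 1.56% were, and Sca1+ reporter-negative cells 0 and 1, where 0.345% and 0.562% were. In the search for arrays that stand apart, described further below, the Sca1- array of mouse 1 was flagged for 10 collagens. It was also highest of its group for others, such as Col1a1 and Col14a1. Leaving out this array gave 10 higher instead of 1 between the negative populations, where 3.18% of all genes were. Between reporter-dim and Sca1+ reporter-negative cells it gave 12 instead of 2, where 4.46% were. Comparisons that share a population share its arrays.

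**Figure D2:**
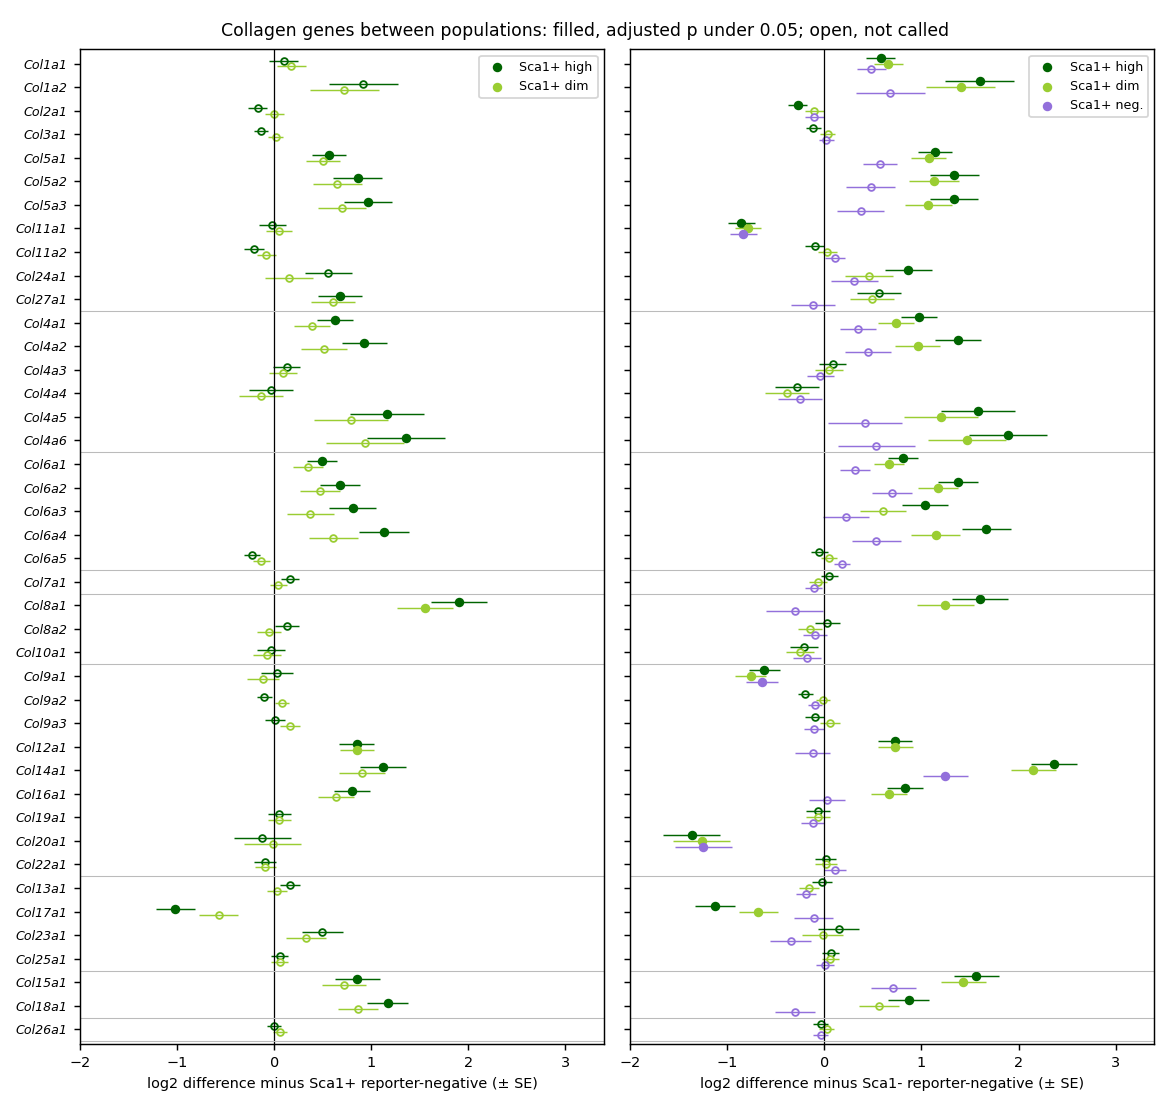
Log2 difference of each collagen gene, with its SE as a bar, from Sca1+ reporter-negative cells (left) and from Sca1- cells (right), for reporter-high, reporter-dim and, at the right, Sca1+ reporter-negative cells. Filled points passed an adjusted p under 0.05. Col8a1 lies farthest right in the left panel at 1.91, and Col14a1 in the right panel at 2.37.

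The fibrillar genes Col1a1, Col1a2 and Col3a1, which make types I and III, the bulk of interstitial fibrils, did not pass when reporter-high cells were set against Sca1+ reporter-negative ones. Col1a1 read 53516, 58041, 57886 and 52586 in reporter-high and 65743, 55057, 61261 and 52848 in reporter-dim cells, against 58029, 48656, 53245 and 48067 in Sca1+ reporter-negative and 55556, 35785, 31729 and 29910 in Sca1- cells. The first 3 populations overlapped, and 3 of the 4 Sca1- arrays lay below all others while that of mouse 1 did not. Its difference from Sca1- cells was 0.58 ± 0.15 (SE, adjusted p = 0.00677) in reporter-high and 0.66 ± 0.15 (SE, adjusted p = 0.0094) in reporter-dim cells. Col1a2, measured by 1 probe set, read 8879, 6641, 4691 and 4158 in reporter-high and 7283, 5635, 4233 and 3845 in reporter-dim cells, against 5187, 2600, 3006 and 2229 in Sca1+ reporter-negative and 3959, 1229, 1556 and 1809 in Sca1- cells. Mouse 1 was highest in every population. Reporter-high cells lay above Sca1- cells by 1.60 ± 0.35 (SE, adjusted p = 0.0025) and reporter-dim cells by 1.40 ± 0.35 (SE, adjusted p = 0.0167). Against Sca1+ reporter-negative cells the reporter-high difference was 0.92 ± 0.35 (SE, adjusted p = 0.0634), and with mouse as a block it was called (adjusted p = 0.00147).

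The brightest probe set of Col3a1 read 59759, 57020, 63724 and 64553 in reporter-high and 72820, 66975, 66740 and 65219 in reporter-dim cells, against 71754, 62626, 65219 and 69587 in Sca1+ reporter-negative and 76103, 60579, 65353 and 64107 in Sca1- cells. All 4 populations overlapped, no comparison was called, and the largest difference was -0.15 ± 0.08 (SE, adjusted p = 0.345) between reporter-high and reporter-dim cells. The other probe set of Col3a1 gave another picture. It read 26178, 26297, 19876 and 18894 in reporter-high and 23149, 25355, 14489 and 13636 in reporter-dim cells, against 19547, 9555, 9813 and 10981 in Sca1+ reporter-negative and 14014, 4349, 4593 and 3885 in Sca1- cells. On it reporter-high cells lay above Sca1- cells by 1.97 ± 0.36 (SE, adjusted p = 0.000699), reporter-dim cells by 1.68 ± 0.36 (SE, adjusted p = 0.0067), and of the Sca1- arrays only that of mouse 1 reached any reporter-dim array. The Sca1+ reporter-negative array of mouse 1 also lay within the reporter-dim range.

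Type V chains start the growth of type I fibrils, and all 3 type V genes rose. Col5a2 read 50966, 50966, 46619 and 46619 in reporter-high and 47269, 49205, 37440 and 36297 in reporter-dim cells, against 41992, 23368, 21448 and 24646 in Sca1+ reporter-negative and 36537, 15671, 15876 and 15209 in Sca1- cells. Both negative populations lay below every reporter-high array. The rise in reporter-high cells was 0.86 ± 0.25 (SE, adjusted p = 0.018) over Sca1+ reporter-negative and 1.34 ± 0.25 (SE, adjusted p = 0.000822) over Sca1- cells. Col5a3 read 16666, 17218, 15248 and 14029 in reporter-high and 15161, 14887, 11741 and 11128 in reporter-dim cells, against 11360, 7058, 8037 and 6576 in Sca1+ reporter-negative and 11725, 4383, 5454 and 5386 in Sca1- cells. Its rises in the same comparisons were 0.96 ± 0.25 (SE, adjusted p = 0.00793) and 1.34 ± 0.25 (SE, adjusted p = 0.000645). Col5a1, the chain present in nearly all type V molecules, read 40088, 38193, 36287 and 39068 in reporter-high and 41472, 39449, 33444 and 32916 in reporter-dim cells, against 32955, 22982, 24694 and 23989 in Sca1+ reporter-negative and 27379, 16671, 14056 and 14339 in Sca1- cells. Here too the reporter-high arrays stood clear of both negative populations. It rose by 0.57 ± 0.18 (SE, adjusted p = 0.0227) and 1.14 ± 0.18 (SE, adjusted p = 0.000178).

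Col27a1, of the long fibrillar subfamily with Col24a1, read 3887, 3850, 3771 and 3287 in reporter-high and 4010, 2462, 3298 and 4694 in reporter-dim cells, against 3034, 1775, 1975 and 2646 in Sca1+ reporter-negative and 3860, 2025, 2008 and 2501 in Sca1- cells. It rose over Sca1+ reporter-negative cells by 0.68 ± 0.23 (SE, adjusted p = 0.0336), while over Sca1- cells the difference was 0.56 ± 0.23 (SE, adjusted p = 0.0686). The rise passed in 21 of 31 other settings. On the other probe set of Col27a1 it was 0.28 ± 0.12 (SE, adjusted p = 0.113 over all probe sets) and was not called. Col24a1 rose over Sca1- cells by 0.86 ± 0.24 (SE, adjusted p = 0.0113). It was dim, at 698, 652, 459 and 424 in reporter-high and 441, 430, 347 and 438 in reporter-dim cells, against 666, 316, 265 and 338 in Sca1+ reporter-negative and 349, 261, 250 and 355 in Sca1- cells. The reporter-high and Sca1+ reporter-negative arrays overlapped. Col2a1, the cartilage fibril chain, was lower in reporter-high than in Sca1- cells, with a log2 difference of -0.27 ± 0.10 (SE, adjusted p = 0.0396). It read 561, 471, 494 and 463 in reporter-high and 667, 510, 537 and 528 in reporter-dim cells, against 585, 568, 528 and 550 in Sca1+ reporter-negative and 586, 677, 520 and 627 in Sca1- cells. The reporter-high and Sca1- arrays overlapped. The difference turned to 0.16 when arrays were scaled to the hybridization controls. Col11a2 passed in no comparison, and Col11a1 is described with the genes of Sca1- cells.

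**Figure D3:**
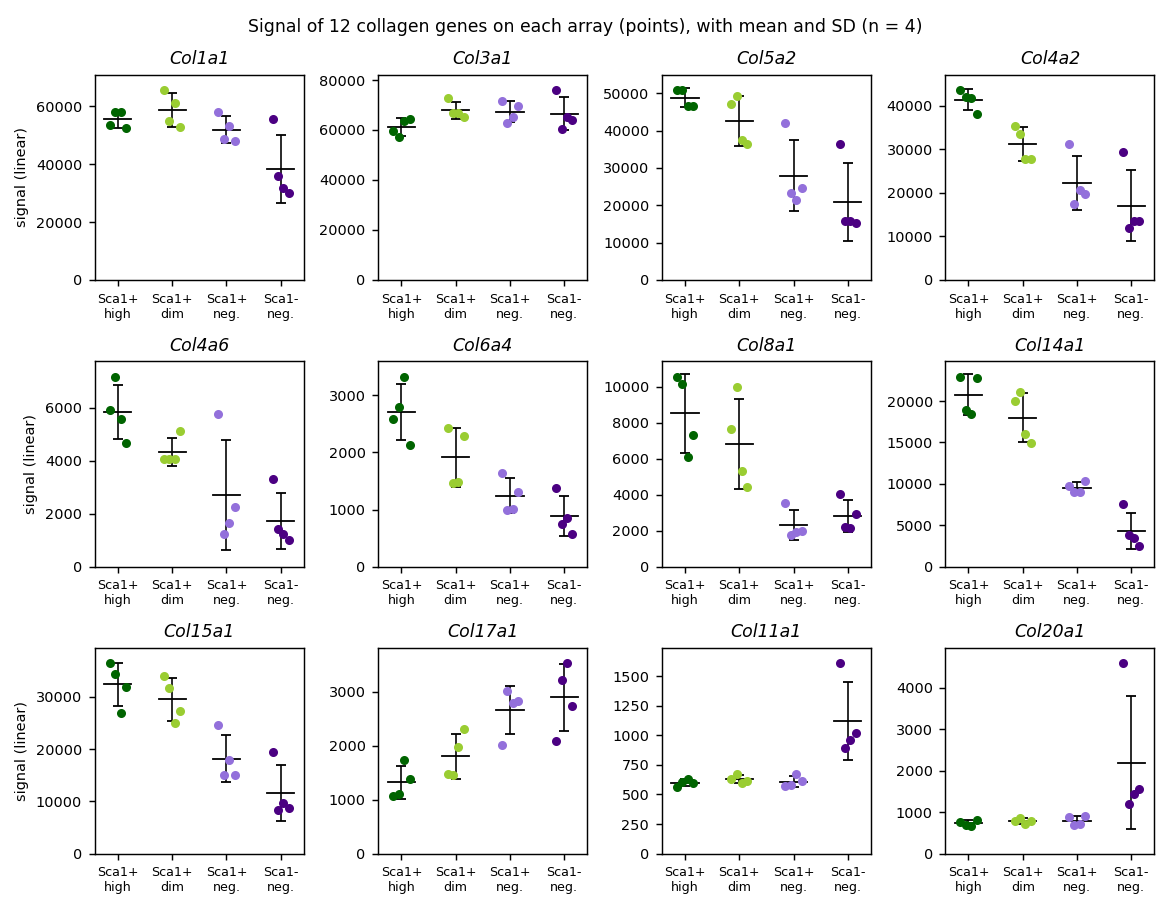
Signal (linear axis from 0) of 12 collagen genes on every array (points), with the mean as a line and SD as bars (n = 4), for reporter-high, reporter-dim, Sca1+ reporter-negative and Sca1- cells from left to right. Col3a1 is level across populations on this probe set, Col5a2, Col4a2, Col6a4 and Col15a1 step down from left to right, and Col11a1 and Col20a1 are raised in Sca1- cells alone.

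Of the 6 type IV genes, which build basement membrane, Col4a1, Col4a2, Col4a5 and Col4a6 rose in reporter-high cells and Col4a3 and Col4a4 did not pass in any comparison. In mouse the genes lie in 3 head-to-head pairs, Col4a1 with Col4a2, Col4a3 with Col4a4 and Col4a5 with Col4a6. Col4a2 read 43652, 42058, 41714 and 38172 in reporter-high and 35400, 33593, 27729 and 27823 in reporter-dim cells, against 31157, 17344, 20745 and 19782 in Sca1+ reporter-negative and 29309, 11813, 13582 and 13616 in Sca1- cells. Every reporter-high array lay above every other array. The rise was 0.93 ± 0.23 (SE, adjusted p = 0.00734) over Sca1+ reporter-negative and 1.38 ± 0.23 (SE, adjusted p = 0.000357) over Sca1- cells. Col4a1 read 57523, 58741, 53438 and 53613 in reporter-high and 52667, 49245, 43580 and 44251 in reporter-dim cells, against 47235, 31228, 36516 and 31370 in Sca1+ reporter-negative and 46035, 24526, 24265 and 23812 in Sca1- cells. It too was highest on every reporter-high array, with rises of 0.63 ± 0.18 (SE, adjusted p = 0.0166) and 0.97 ± 0.18 (SE, adjusted p = 0.000764).

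Col4a5 and Col4a6 make the chains of basement membranes around smooth muscle and in skin, and both are X-linked. Col4a5 read 15349, 19424, 10956 and 12278 in reporter-high and 12015, 11570, 9126 and 11143 in reporter-dim cells, against 15354, 4496, 3491 and 6571 in Sca1+ reporter-negative and 8668, 4016, 3169 and 4540 in Sca1- cells. The Sca1+ reporter-negative array of mouse 1 reached the reporter-high arrays, and the other 3 did not reach them. Its rise was 1.17 ± 0.38 (SE, adjusted p = 0.0297) over Sca1+ reporter-negative cells and 1.58 ± 0.38 (SE, adjusted p = 0.0043) over Sca1- cells. Col4a6 read 5912, 7178, 5593 and 4688 in reporter-high and 4063, 4065, 4084 and 5109 in reporter-dim cells, against 5760, 1224, 1645 and 2243 in Sca1+ reporter-negative and 3303, 1415, 1222 and 1030 in Sca1- cells. Again 1 Sca1+ reporter-negative array, of mouse 1, lay among the reporter-high ones. Its rises were 1.35 ± 0.40 (SE, adjusted p = 0.0182) and 1.89 ± 0.40 (SE, adjusted p = 0.00182), each the second largest of all collagens in its comparison. Reporter-dim cells lay above Sca1- cells by 1.47 ± 0.40 (SE, adjusted p = 0.0246) for Col4a6. Over the 10 arrays with high Xist alone, the rise over Sca1+ reporter-negative cells was 1.31 ± 0.24 (SE, adjusted p = 0.00244) for Col4a5 and 1.63 ± 0.23 (SE, adjusted p = 0.000564) for Col4a6, between 2 and 3 arrays. Without mouse 2 it was 0.85 ± 0.48 (SE, adjusted p = 0.262) and 0.96 ± 0.48 (SE, adjusted p = 0.201).

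The promoters of 4 genes are shown because these genes mark the ends of the pattern: Col8a1 rose most over Sca1+ reporter-negative cells, Col4a5 and Col4a6 are a pair on opposite strands that rose together, and Col17a1 fell. They were chosen after their values were seen. Each sequence is the 250 bases before the gene's start, 5′ to 3′ on the gene's own strand, from RefSeq on GRCm38.p6. Capitals mark the letters of the GC box, the CCAAT box and the TATA box, spelled out after the sequences, on either strand.
Col8a1 (chr16:57754738-57754987, minus strand): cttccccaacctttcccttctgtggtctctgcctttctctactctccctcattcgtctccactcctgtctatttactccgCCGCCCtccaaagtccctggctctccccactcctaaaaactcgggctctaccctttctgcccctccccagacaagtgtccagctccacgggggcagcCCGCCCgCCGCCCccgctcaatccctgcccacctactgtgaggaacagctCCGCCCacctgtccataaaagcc
Col4a5 (chrX:141475169-141475418, plus strand): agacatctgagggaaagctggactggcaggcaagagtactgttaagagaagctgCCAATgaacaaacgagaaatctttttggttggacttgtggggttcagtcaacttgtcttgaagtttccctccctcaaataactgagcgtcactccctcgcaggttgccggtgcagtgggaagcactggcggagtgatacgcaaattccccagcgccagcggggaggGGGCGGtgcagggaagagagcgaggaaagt
Col4a6 (chrX:141474077-141474326, minus strand): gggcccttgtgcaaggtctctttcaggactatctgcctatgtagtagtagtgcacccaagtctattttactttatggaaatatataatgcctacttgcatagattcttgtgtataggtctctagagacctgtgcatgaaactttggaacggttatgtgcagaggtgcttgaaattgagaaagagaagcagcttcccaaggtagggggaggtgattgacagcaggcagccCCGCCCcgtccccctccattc
Col17a1 (chr19:47692043-47692292, minus strand): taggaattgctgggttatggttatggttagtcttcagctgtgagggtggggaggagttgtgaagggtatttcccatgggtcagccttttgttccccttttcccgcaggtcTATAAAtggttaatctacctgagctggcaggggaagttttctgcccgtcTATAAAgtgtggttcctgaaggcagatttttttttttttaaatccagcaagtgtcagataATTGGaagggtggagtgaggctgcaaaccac

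Promoters of 33 of the 42 collagens were matched in the RefSeq table, and 6 motifs were searched on both strands in the 250 bases. The GC box, GGGCGG, was present in 60.6% of the collagen promoters and in 35.4% of all 27025 promoters. The CCAAT box, CCAAT, was present in 39.4% and 37.5%, and the TATA box, TATAAA, in 15.2% and 14.3%. The letters GACCACCCA of the Gli site, GTCTAGAC of the Smad palindrome and CACGTG of the E-box were in 0 collagen promoters, and in 0.255%, 0.2% and 6.86% of all. Of the 15 matched genes that rose in reporter-high over Sca1+ reporter-negative cells, 11 held the GC box and 0 the TATA box, against 9 and 5 of the other 18. These are matches of letters and were not tested.

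Type VI collagen forms the beaded filaments around cells, from a short pair of chains, Col6a1 and Col6a2, and a longer one, Col6a3 or in mouse also Col6a4. All 4 rose in reporter-high cells against both negative populations. Col6a4 read 2579, 2785, 3322 and 2133 in reporter-high and 2424, 1461, 1475 and 2292 in reporter-dim cells, against 1646, 1001, 1017 and 1315 in Sca1+ reporter-negative and 1375, 743, 861 and 567 in Sca1- cells. Every reporter-high array lay above every array of both negative populations. Its rise was 1.13 ± 0.26 (SE, adjusted p = 0.0037) over Sca1+ reporter-negative and 1.67 ± 0.26 (SE, adjusted p = 0.000167) over Sca1- cells. Col6a3 read 40482, 33357, 31031 and 29684 in reporter-high and 25630, 29105, 21737 and 23058 in reporter-dim cells, against 29201, 15344, 15615 and 18947 in Sca1+ reporter-negative and 26283, 12595, 11789 and 18140 in Sca1- cells. It rose by 0.81 ± 0.24 (SE, adjusted p = 0.0177) and 1.03 ± 0.24 (SE, adjusted p = 0.0032). Col6a2 read 33875, 35658, 36338 and 31691 in reporter-high and 32597, 30683, 28468 and 27406 in reporter-dim cells, against 29430, 18526, 19371 and 19923 in Sca1+ reporter-negative and 23058, 10435, 11090 and 11503 in Sca1- cells. It rose by 0.68 ± 0.21 (SE, adjusted p = 0.0202) and 1.38 ± 0.21 (SE, adjusted p = 0.000142). Col6a1 read 68431, 68376, 63797 and 63218 in reporter-high and 63389, 64125, 54172 and 57392 in reporter-dim cells, against 59368, 40585, 42159 and 47064 in Sca1+ reporter-negative and 54698, 32894, 30504 and 36180 in Sca1- cells. Its rises, 0.50 ± 0.15 (SE, adjusted p = 0.0239) and 0.81 ± 0.15 (SE, adjusted p = 0.000828), were the smallest of the 4. For all 4 genes no Sca1+ reporter-negative array reached a reporter-high array. Col6a5 stayed at array background, at 179 to 258 on the 16 arrays.

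Col8a1, a chain of the short network collagen of vessel walls and the cornea, had the largest rise in reporter-high over Sca1+ reporter-negative cells. It read 10558, 10158, 6070 and 7309 in reporter-high and 7658, 9970, 5308 and 4406 in reporter-dim cells, against 3543, 1786, 1905 and 1987 in Sca1+ reporter-negative and 4025, 2214, 2139 and 2949 in Sca1- cells. All arrays of both reporter-positive populations lay above all arrays of both negative ones. Reporter-high cells lay above Sca1+ reporter-negative cells by 1.91 ± 0.29 (SE, adjusted p = 0.00037) and reporter-dim cells by 1.56 ± 0.29 (SE, adjusted p = 0.0256). Over Sca1- cells the rises were 1.60 ± 0.29 (SE, adjusted p = 0.000566) and 1.25 ± 0.29 (SE, adjusted p = 0.0104). Its partner chain Col8a2 and the growth-plate collagen Col10a1 passed in no comparison, with signals of 280 to 438 and 339 to 549.

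Among the FACIT genes, Col14a1, which coats fibrils and limits their width, changed most, with the largest rise of any collagen over Sca1- cells. It read 22948, 18975, 18415 and 22818 in reporter-high and 19963, 21067, 16030 and 14960 in reporter-dim cells, against 9698, 9030, 9007 and 10374 in Sca1+ reporter-negative and 7526, 3819, 3517 and 2561 in Sca1- cells. The 2 negative populations did not overlap each other, nor did they overlap the reporter-positive ones, which overlapped each other. Reporter-high cells lay above Sca1+ reporter-negative cells by 1.12 ± 0.23 (SE, adjusted p = 0.00231) and above Sca1- cells by 2.37 ± 0.23 (SE, adjusted p = 9.91e-06), and reporter-dim cells above Sca1- cells by 2.15 ± 0.23 (SE, adjusted p = 5.88e-05). Sca1+ reporter-negative cells lay above Sca1- cells by 1.25 ± 0.23 (SE, adjusted p = 0.00746). The reporter-dim difference from Sca1+ reporter-negative cells, 0.91 ± 0.23 (SE, adjusted p = 0.0629), was called with mouse as a block (adjusted p = 0.0121). All 3 of its probe sets gave the same calls against Sca1- cells.

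Col12a1, a FACIT chain of tendon and other dense tissue, rested on 1 dim probe set. It read 998, 945, 933 and 869 in reporter-high and 978, 1036, 767 and 991 in reporter-dim cells, against 699, 438, 439 and 538 in Sca1+ reporter-negative and 708, 713, 440 and 456 in Sca1- cells. Reporter-high and reporter-dim cells lay above Sca1+ reporter-negative cells by 0.85 ± 0.18 (SE, adjusted p = 0.00234) and 0.85 ± 0.18 (SE, adjusted p = 0.0368), with no overlap. Col16a1 read 5463, 5353, 4870 and 5003 in reporter-high and 5739, 4263, 4339 and 4241 in reporter-dim cells, against 4168, 2585, 2818 and 2541 in Sca1+ reporter-negative and 4356, 2575, 2433 and 2622 in Sca1- cells. It rose in reporter-high cells by 0.80 ± 0.18 (SE, adjusted p = 0.00407) over Sca1+ reporter-negative and 0.83 ± 0.18 (SE, adjusted p = 0.00242) over Sca1- cells. Col9a2, Col9a3, Col19a1 and Col22a1 passed in no comparison.

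Both multiplexins rose. Col15a1, which bridges fibrils near the basement membrane, read 36380, 34357, 26954 and 31917 in reporter-high and 33904, 31784, 25079 and 27296 in reporter-dim cells, against 24569, 15009, 17922 and 15145 in Sca1+ reporter-negative and 19496, 8441, 9632 and 8821 in Sca1- cells. No Sca1+ reporter-negative or Sca1- array reached a reporter-high or reporter-dim array. The rise in reporter-high cells was 0.86 ± 0.23 (SE, adjusted p = 0.0106) over Sca1+ reporter-negative and 1.57 ± 0.23 (SE, adjusted p = 0.000124) over Sca1- cells, and in reporter-dim cells 1.43 ± 0.23 (SE, adjusted p = 0.00103) over Sca1- cells. Col18a1, the source of the fragment endostatin, read 10369, 9714, 9541 and 9174 in reporter-high and 8895, 8180, 7101 and 7289 in reporter-dim cells, against 5895, 3607, 4046 and 3989 in Sca1+ reporter-negative and 9298, 4555, 4531 and 4147 in Sca1- cells. It was highest in reporter-high cells, and the Sca1- array of mouse 1 came among them. Its rises were 1.17 ± 0.21 (SE, adjusted p = 0.000916) and 0.87 ± 0.21 (SE, adjusted p = 0.00442).

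Of the transmembrane collagens only Col17a1, which anchors epithelial cells through the hemidesmosome, was called on its brightest probe set. It read 1076, 1107, 1735 and 1385 in reporter-high and 1478, 1459, 1972 and 2319 in reporter-dim cells, against 2011, 3017, 2799 and 2830 in Sca1+ reporter-negative and 2099, 3226, 3529 and 2739 in Sca1- cells. Reporter-high arrays lay below all Sca1+ reporter-negative and all Sca1- arrays. The difference was -1.02 ± 0.20 (SE, adjusted p = 0.00171) against Sca1+ reporter-negative and -1.13 ± 0.20 (SE, adjusted p = 0.000526) against Sca1- cells, and in reporter-dim cells -0.68 ± 0.20 (SE, adjusted p = 0.0359) against Sca1- cells. The epithelial markers moved the same way, as given below. Col13a1 and Col25a1 passed in no comparison. Col7a1, the anchoring fibril below epithelia, read 875, 798, 979 and 921 in reporter-high and 825, 844, 802 and 813 in reporter-dim cells, against 727, 923, 786 and 761 in Sca1+ reporter-negative and 950, 753, 851 and 896 in Sca1- cells, all in 1 narrow range, and was not called.

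Col20a1, Col11a1 and Col9a1 were higher in Sca1- cells than in each of the 3 Sca1+ populations. Col20a1, a FACIT chain, read 753, 683, 659 and 820 in reporter-high and 775, 870, 706 and 783 in reporter-dim cells, against 872, 692, 704 and 918 in Sca1+ reporter-negative and 4580, 1207, 1446 and 1546 in Sca1- cells. No Sca1- array overlapped another population, and that of mouse 1 lay far above the other 3. Its difference from Sca1- cells was -1.37 ± 0.29 (SE, adjusted p = 0.00196) in reporter-high, -1.26 ± 0.29 (SE, adjusted p = 0.0105) in reporter-dim and -1.25 ± 0.29 (SE, adjusted p = 0.0353) in Sca1+ reporter-negative cells. Col11a1, a fibrillar chain of cartilage, read 567, 606, 633 and 597 in reporter-high and 629, 675, 601 and 616 in reporter-dim cells, against 572, 583, 669 and 612 in Sca1+ reporter-negative and 1606, 889, 959 and 1015 in Sca1- cells. Its differences were -0.85 ± 0.14 (SE, adjusted p = 0.000231), -0.79 ± 0.14 (SE, adjusted p = 0.00176) and -0.84 ± 0.14 (SE, adjusted p = 0.00271) in the same order. Col9a1, its usual FACIT partner in cartilage, read 285, 298, 286 and 295 in reporter-high and 259, 266, 236 and 296 in reporter-dim cells, against 286, 279, 291 and 286 in Sca1+ reporter-negative and 699, 430, 318 and 416 in Sca1- cells. It lay above the highest control on 3 of 4 reporter-high, 1 of 4 reporter-dim, 0 of 4 Sca1+ reporter-negative and 3 of 4 Sca1- arrays, so these differences rest on signals close to background. It differed from Sca1- cells by -0.62 ± 0.16 (SE, adjusted p = 0.00754) in reporter-high and -0.76 ± 0.16 (SE, adjusted p = 0.0062) in reporter-dim cells. As Sca1+ reporter-negative cells were at array background, Sca1- cells were at least 1.15-fold higher than these. Limma's call for this comparison (adjusted p = 0.0498) used the signals as read and does not test that bound. This call passed in 9 of 31 other settings, with an adjusted p of up to 0.331, and that of Col20a1 between the same populations in 20 of 31, with an adjusted p of up to 0.197.

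Markers of enteric glia and neurons moved with these 3 genes. The list of 6 measured genes averaged a log2 signal of 8.72 ± 0.07 on reporter-high arrays, 8.81 ± 0.06 on reporter-dim arrays, 8.90 ± 0.12 on Sca1+ reporter-negative arrays and 9.60 ± 0.30 on Sca1- arrays (SD, n = 4). Of the 6, 4 were called lower and 1 higher in reporter-high than in Sca1- cells, where 16.7% and 19.2% of all genes were. The Sca1- array of mouse 1 was highest for this list too, at 10.03 against 9.38 to 9.59 on the other 3 arrays. All 4 markers of interstitial cells of Cajal were lower in reporter-high than in Sca1- cells, where 16.7% of all genes were. The 6 measured pericyte markers averaged a log2 signal of 10.21 ± 0.01 on reporter-high arrays, 10.01 ± 0.10 on reporter-dim arrays, 10.04 ± 0.27 on Sca1+ reporter-negative arrays and 10.86 ± 0.35 on Sca1- arrays (SD, n = 4). Against Sca1- cells 1 of them was called lower in reporter-high cells, 3 in reporter-dim cells and 1 in Sca1+ reporter-negative cells, with 0 called higher. Of all genes 16.7%, 5.89% and 1.23% were called lower in these comparisons. The part of these markers in the collagen values was not tested.

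Probe sets of 1 gene did not always give 1 size of difference. Among the 14 collagens with 2 or more probe sets above the highest control on all arrays, the dimmest gave a larger log2 difference than the brightest in 9 between reporter-high and Sca1- cells, by a median of 0.22. In all 5 genes whose brightest probe set averaged over 20000 the dimmest gave the larger difference. These were Col3a1 (larger by 2.09), Col5a2 (0.83), Col5a1 (0.79), Col6a2 (0.23) and Col4a1 (0.02). For Col4a1 the gap was far below the SE of either probe set, 0.18. For Col6a2 it was about the size of the SE, 0.21 and 0.22. Col5a2 differed by 2.17 ± 0.41 (SE, adjusted p = 0.000917) on its dim and 1.34 ± 0.25 (SE, adjusted p = 0.000993) on its bright probe set. The pattern was noticed in these data, and its cause was not tested. Col1a1, Col4a2, Col6a1, Col6a3 and Col15a1 also averaged over 20000 and had no second probe set of this kind. Over all 68 probe sets 32 were called higher and 1 lower in reporter-high against Sca1+ reporter-negative cells, where 15.2% and 11.0% of all probe sets were. Col23a1, a transmembrane collagen, was split. Its brightest probe set was not called, while another read 940, 638, 835 and 916 in reporter-high and 671, 665, 534 and 590 in reporter-dim cells, against 578, 416, 525 and 444 in Sca1+ reporter-negative and 2103, 955, 702 and 1151 in Sca1- cells. On that probe set reporter-high cells differed from Sca1+ reporter-negative cells by 0.76 ± 0.25 (SE, adjusted p = 0.0328), and Sca1+ reporter-negative from Sca1- cells by -1.21 ± 0.25 (SE, adjusted p = 0.0144). The remaining probe set of Col23a1 gave 0.08 ± 0.33 (SE, adjusted p = 0.895) and -1.02 ± 0.33 (SE, adjusted p = 0.152) in these comparisons. It was called lower in reporter-high than in Sca1- cells, by -0.94 ± 0.33 (SE, adjusted p = 0.0395).

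**Figure D4:**
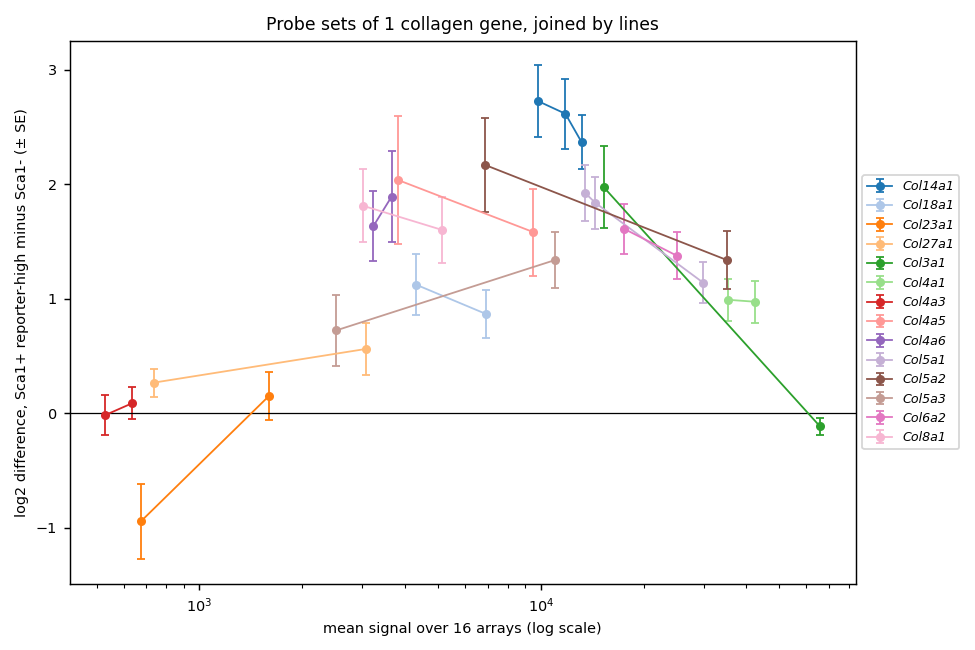
Log2 difference between reporter-high and Sca1- cells (vertical axis, bars are SE) against mean signal over 16 arrays (log axis) for the 14 collagens with 2 or more probe sets above the highest control on all arrays, probe sets of a gene joined by a line. Col3a1 drops from 1.97 on its dim to -0.12 on its bright probe set.

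Enzymes and chaperones that fold and modify collagen rose with the chains. Of 17 measured, 14 were called higher and 0 lower in reporter-high over Sca1+ reporter-negative cells, where 17.0% and 13.9% of all genes were. Against Sca1- cells 16 and 0 were called, where 19.2% and 16.7% of all genes were. Reporter-dim cells had 2 higher than Sca1+ reporter-negative cells, where 0.901% of all genes were, and 6 with mouse as a block, where 6.18% were. P4ha3, a prolyl 4-hydroxylase subunit, averaged 1140 ± 229 in reporter-high and 404 ± 83.4 in Sca1+ reporter-negative cells (SD, n = 4), a difference of 1.50 ± 0.26 (SE, adjusted p = 0.000712). P3h1, a prolyl 3-hydroxylase, averaged 2506 ± 526 in reporter-high and 1044 ± 274 in Sca1+ reporter-negative cells, a difference of 1.27 ± 0.23 (SE, adjusted p = 0.000856). The related P3h3 differed by 1.07 ± 0.21 (SE, adjusted p = 0.00138). Against Sca1- cells Crtap, the cofactor of P3h1, differed by 1.50 ± 0.19 (SE, adjusted p = 4.66e-05).

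Of 11 measured genes that trim procollagen and crosslink fibrils, 6 were higher and 0 lower in reporter-high over Sca1+ reporter-negative cells. Of all genes 17.0% and 13.9% were. Against Sca1- cells 9 were higher and 1 lower, where 19.2% and 16.7% of all genes were. The lysyl oxidase Loxl2 averaged 5183 ± 704 in reporter-high and 2340 ± 852 in Sca1+ reporter-negative cells (SD, n = 4), a difference of 1.20 ± 0.28 (SE, adjusted p = 0.00488). The largest change of the pathway was in Pcolce2, an enhancer of procollagen C-proteinase. It averaged 8994 ± 1161 in reporter-high and 1260 ± 385 in Sca1- cells, a difference of 2.87 ± 0.18 (SE, adjusted p = 1.64e-07). Sca1+ reporter-negative cells already lay above Sca1- cells by 2.38 ± 0.18 (SE, adjusted p = 2.8e-06) for Pcolce2 and 1.68 ± 0.32 (SE, adjusted p = 0.00897) for Lox. In that comparison 4 genes were higher, where 1.22% of all genes were, and 8 with mouse as a block, where 2.06% were. There 1 gene was lower, where 1.23% of all genes were. It was the procollagen proteinase Tll2, named after its values were seen.

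Among 13 measured fibril partners, 6 rose in reporter-high over Sca1+ reporter-negative cells and 0 fell, where 17.0% and 13.9% of all genes did. Against Sca1- cells 10 rose and 1 fell, where 19.2% and 16.7% of all genes did. Over Sca1+ reporter-negative cells the small leucine-rich proteoglycans Prelp and Bgn rose by 1.11 ± 0.23 (SE, adjusted p = 0.00253) and 1.04 ± 0.19 (SE, adjusted p = 0.00121). Ogn rose by 1.56 ± 0.29 (SE, adjusted p = 0.000742) over Sca1- cells. Thbs2, a thrombospondin, was the gene that fell, at 4574 ± 999 in reporter-high and 8049 ± 2980 in Sca1- cells (SD, n = 4). Of 9 measured receptors 2 rose and 2 fell in reporter-high against Sca1+ reporter-negative cells, where 17.0% and 13.9% of all genes did. Ddr2, the receptor of fibrillar collagen on mesenchymal cells, rose by 0.82 ± 0.21 (SE, adjusted p = 0.00885), and Mrc2, which takes up collagen fragments, by 0.79 ± 0.17 (SE, adjusted p = 0.00253). Itga2 and Ddr1, both common on epithelia, were the ones that fell, with Itga2 at -0.47 ± 0.12 (SE, adjusted p = 0.0087). The list of 11 measured degradation genes holds proteases and also their inhibitors Timp1, Timp2 and Timp3. Of these 11 genes 6 rose in that comparison, Mmp2, Mmp14, Ctsk, Fap, Timp2 and Timp3, and 0 fell, where 17.0% and 13.9% of all genes did. Against Sca1- cells 7 rose, Timp1 being added, and 0 fell, where 19.2% and 16.7% of all genes did. Fap, a serine protease of activated fibroblasts, rose by 1.23 ± 0.29 (SE, adjusted p = 0.00508) and 2.11 ± 0.29 (SE, adjusted p = 8.47e-05), and Ctsk by 0.86 ± 0.24 (SE, adjusted p = 0.0136) and 1.79 ± 0.24 (SE, adjusted p = 7.33e-05).

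Epithelial markers moved opposite to the collagens. In the gate without Epcam, their 18 measured genes averaged a log2 signal of 11.39 ± 0.84 on reporter-high arrays, 12.93 ± 0.50 on reporter-dim arrays, 13.63 ± 0.29 on Sca1+ reporter-negative arrays and 13.59 ± 0.45 on Sca1- arrays (SD, n = 4). Array means ran from 10.61 to 12.50, 12.42 to 13.46, 13.22 to 13.89 and 12.95 to 13.98. In reporter-high against Sca1+ reporter-negative cells 17 of 18 were lower, where 13.9% of all genes were. Epcam itself read 1698 to 6869 on reporter-high arrays, 6249 to 13623 on reporter-dim arrays, 12855 to 20560 on Sca1+ reporter-negative arrays and 10080 to 21786 on Sca1- arrays. With this array mean as a covariate 0 collagens were called higher and 0 lower between these populations, and of all genes 0.00585% were called higher and 0.0% lower. With the covariate 1 collagen was higher and 3 lower in reporter-high against Sca1- cells, where 0.86% and 0.936% of all genes were. Reporter-dim cells had 11 higher and 4 lower than Sca1- cells, where 5.02% and 3.59% were, and Sca1+ reporter-negative cells 4 and 3, where 2.18% and 1.68% were. Between reporter-dim and Sca1+ reporter-negative cells 1 was higher and 0 lower, where 0.0877% and 0.158% were. Col14a1 then lay above Sca1- cells by 1.64 ± 0.39 (SE, adjusted p = 0.0436) in reporter-high cells, and Col8a1 above Sca1+ reporter-negative cells by 1.09 ± 0.19 (SE, adjusted p = 0.0208) in reporter-dim cells. For the negative populations, whose epithelial means overlapped, Col14a1 differed by 1.26 ± 0.20 (SE, adjusted p = 0.00179).

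Other lists also moved. Smooth muscle markers were higher in reporter-high against Sca1+ reporter-negative cells for 6 of 8 genes, and endothelial markers lower for 9 of 12 and higher for 1. Of all genes 17.0% were higher and 13.9% lower there. The ratio of 3-prime to 5-prime Actb signal was 1.24 ± 0.03 on reporter-high arrays, 1.15 ± 0.07 on reporter-dim arrays, 1.11 ± 0.01 on Sca1+ reporter-negative arrays and 1.11 ± 0.05 on Sca1- arrays (SD, n = 4). That of Gapdh was 0.997 ± 0.013, 1.020 ± 0.014, 0.954 ± 0.008 and 0.917 ± 0.017 in the same order, highest on reporter-dim arrays. Their part in the collagen differences was not tested. Scaled to the hybridization controls, the median of all genes in reporter-high over Sca1+ reporter-negative cells moved to 0.38, and 33 collagens were called higher and 1 lower, where 60.0% and 5.18% of all genes were. With it 15 and 0 were called between reporter-high and reporter-dim cells, where 40.4% and 1.46% of all genes were, and 33 and 3 between reporter-high and Sca1- cells, where 66.2% and 5.57% were. Reporter-dim cells had 7 higher and 0 lower than Sca1+ reporter-negative cells, where 3.06% and 0.292% were, and 19 and 3 against Sca1- cells, where 10.1% and 1.86% were. The negative populations gave 4 and 2, where 1.4% and 0.936% were. In reporter-high against Sca1+ reporter-negative cells that scaling put 92.1% of all called genes on the higher side, against 55.0% without it. The collagens' median moved to 0.71. As the scaling shifts every gene of a comparison by the same amount, it could not change how far, 0.33, the collagens' median lay above that of all genes.

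**Figure D5:**
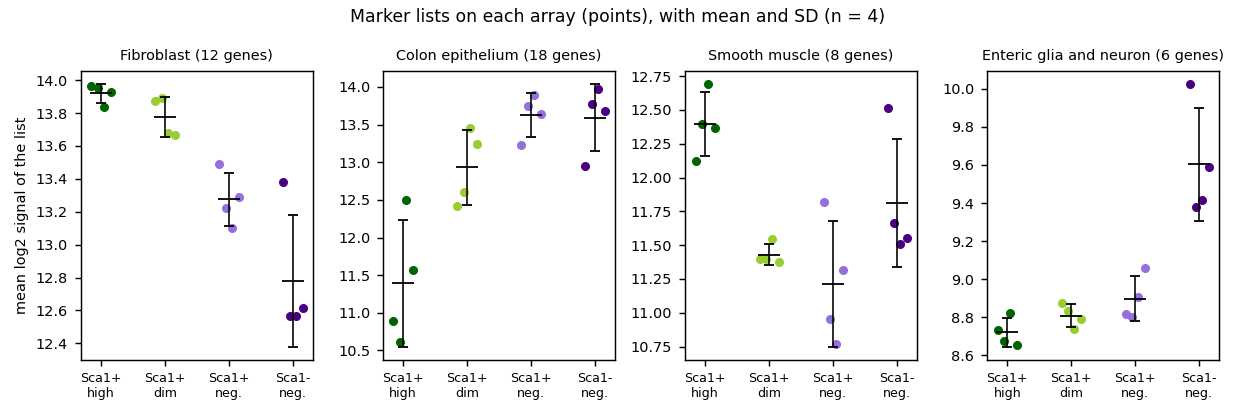
Mean log2 signal of 4 marker lists on every array (points), with mean and SD (n = 4), for reporter-high, reporter-dim, Sca1+ reporter-negative and Sca1- cells from left to right. Fibroblast markers step down from left to right, epithelial markers are lowest in reporter-high cells, and the glia and neuron list is raised in Sca1- cells.

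For 8 pairs of chains the log2 ratio of signals was compared between reporter-high and each negative population, 16 exact two-sided permutation tests in all, added after the values were seen. The pairs were chains of 1 collagen, except Col3a1 with Col1a1, which belong to different types. The smallest p that 4 against 4 arrays allow is 0.0286. Adjusted over the 16 tests a single ratio without overlap could not pass, the lowest adjusted p was 0.0762, and the ratios are given as values only. The log2 ratio of Col6a2 to Col6a1 was -0.94 ± 0.09 in reporter-high and -1.50 ± 0.19 in Sca1- cells (SD, n = 4 each), without overlap. That of Col4a6 to Col4a5 was -1.29 ± 0.22 in reporter-high and -1.60 ± 0.36 in Sca1- cells, with overlap.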

How the data were processed

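RNA was amplified from 2 ng and hybridized to Affymetrix 3-prime arrays. The submitters' processing notes name Affymetrix Expression Console 1.1. For summary, background correction and normalization, the method was not given in the sources used here. What the authors deposited is a score per probe set and array, with mean 0 and SD 1 across the 16 arrays in all 45141 probe sets. The design had assumed values on a log2 scale. Whole-number signals were recovered from the scores for all 45141 probe sets, at 58 to 155937, and gave back every score within 1e-09. This step was tested on simulated data.

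Genes were named by the platform table (28898 probe sets with 1 gene, 551 with several, 15588 with none, 104 controls), and each of 17097 genes was read from its probe set with the highest mean. Log2 signals were fitted with lmFit and eBayes of limma 3.58.1 (R 4.3.3) with a mean for each population and without a block, using the 16 arrays together, for 6 comparisons and an F test. Two-sided p-values were Benjamini-Hochberg adjusted over all genes, with 0.05 as the threshold. At 4 arrays a population, the number of arrays limits the precision. The fit was tested on simulated data. A gene at or below the highest nonspecific control on all 4 arrays of a population was taken as at array background, with the control in its place in an at-least fold. Figures were drawn with matplotlib 3.10.9.

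By the labels each mouse gave all 4 populations, so the replicate block is the labelled mouse. For mouse 2 the sex genes show that this label does not stand for 1 animal. Deviations from population means correlated at 0.26 on average between arrays of 1 mouse (-0.08 for mouse 2 and 0.11 to 0.52 for the others) and at -0.09 between mice. P-values measure the spread between arrays of these animals.

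The members, the gene lists (collagen classes, 5 pathway lists, 9 marker lists) and the tests were chosen with earlier results of these data known. Every collagen could be named. Values on each array were given for the core chains of types I, III, IV, V, VI, XII, XIV, XV and XVIII, Col7a1, Col17a1 and other called collagens above the highest control, log2 difference, SE and adjusted p for up to 5 rises and 5 falls per comparison, and up to 3 genes with the largest called changes were named per pathway list. Alternatives were the replicate block, another scaling, an epithelial covariate, other probe set rules, a variance trend, a filter on dim genes, and leaving out arrays or mice. A split of mouse 2, the dimmest probe set and terms for the sex genes were added after the data were seen.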

Additional observations from a re-analysis of the deposited data

Results flagged for a closer look

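For 30 collagens, each of the 4 populations was searched for an array that stood apart from the other 3, which is 120 searches. An array was flagged where its gap to the nearest array was over 0.829 of the range of the 4 signals (Dixon's ratio, linear scale). The 30 were the genes of types I, III to VII, XII, XIV, XV, XVII and XVIII and any other collagen called in some comparison, leaving out genes at array background in all 4 populations. There were 17 flags. For normal values chance gives a flag in about 1 in 20 searches. The 30 genes were read on the same 16 arrays, so the searches are not independent and the 17 cannot be weighed against that rate. Of the 17 flags, 10 fell on the Sca1- array of mouse 1 and 4 on its Sca1+ reporter-negative array.

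The Sca1- array of mouse 1 was flagged as highest in its population for Col4a1 (46035), Col4a2 (29309), Col4a6 (3303), Col5a2 (36537) and Col5a3 (11725). It was flagged likewise for Col6a2 (23058), Col15a1 (19496), Col16a1 (4356), Col18a1 (9298) and Col20a1 (4580). Without a flag it was highest for others too, such as Col1a1 (55556) and Col14a1 (7526). For Col20a1 it lay above a population that was already highest, and for the other 9 flagged genes it lay toward the reporter-positive levels. The same array was highest of the Sca1- arrays for the fibroblast, smooth muscle, endothelium, pericyte, and enteric glia and neuron lists, and lowest for the epithelial list.

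The Sca1+ reporter-negative array of mouse 1 was flagged as highest for Col5a2 (41992), Col6a2 (29430), Col8a1 (3543) and Col16a1 (4168). Without a flag it was highest of its population for others too, such as Col1a1 (58029) and Col4a1 (47235). It was likewise lowest of its population for the epithelial list. Among reporter-dim arrays, mouse 4 was flagged as highest for Col4a6 (5109), mouse 1 as highest for Col16a1 (5739) and mouse 3 as lowest for Col24a1 (347). No reporter-high array stood apart for any of the 30 genes.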

How the results depend on the processing

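Of 71 called differences of named collagens, 71 kept their direction and stayed past the threshold with the replicate block, 69 with the mean of probe sets, 67 with hybridization scaling and 22 with the epithelial covariate. The block gave 11 collagens higher and 1 lower between reporter-dim and Sca1+ reporter-negative cells, 5 higher between the negative populations and 2 lower in reporter-high over Sca1+ reporter-negative cells, and moved no other count by more than 1.5 times. With mouse 2 as 2 animals these were 8 and 1, 6, and 2, with 1 lower between reporter-high and reporter-dim cells. A term for the sex genes gave 7 and 1, 6, and 1 lower between reporter-high and reporter-dim cells. The 10 arrays with high Xist gave 15 higher, 11 higher, and 1 higher between reporter-high and reporter-dim cells. Hybridization scaling gave 33 collagens higher in reporter-high than in each negative population, 3 lower than in Sca1- cells, 15 higher than in reporter-dim cells, 7 higher in reporter-dim than in Sca1+ reporter-negative cells and 4 between the negative populations, with Col2a1 at 0.16 in reporter-high over Sca1- cells. The variance trend and the mean of probe sets each gave 2 lower in reporter-high against Sca1+ reporter-negative cells. The epithelial covariate gave 0 higher and 0 lower there, 1 higher and 3 lower against Sca1- cells, 1 higher between reporter-dim and Sca1+ reporter-negative cells, 11 between reporter-dim and Sca1- cells, 4 between the negative populations, and 8 by the F test. With it, reporter-high differences from Sca1+ reporter-negative cells turned to -0.045 for Col4a1, -0.46 for Col4a5, -0.10 for Col5a1, -0.12 for Col5a2, -0.11 for Col6a1, -0.13 for Col6a3, -0.14 for Col15a1 and 0.10 for Col17a1. From Sca1- cells they turned to -0.012 for Col1a2, -0.024 for Col4a5 and -0.11 for Col24a1. The cause was not tested. Leaving out an array or a mouse gave 5 to 21 higher and 1 to 2 lower in reporter-high against Sca1+ reporter-negative cells, 0 to 16 higher between reporter-dim and Sca1+ reporter-negative, 0 to 2 higher between reporter-high and reporter-dim, 0 to 10 higher and 0 to 3 lower between the negative populations, 15 to 21 and 3 to 6 between reporter-high and Sca1-, 3 to 20 and 2 to 4 between reporter-dim and Sca1- cells, and 10 to 26 by the F test. The lowest counts of higher calls were all reached without mouse 2. The share of all genes is not given here for the mouse 2 split, the variance trend, the mean of probe sets or the F test with the covariate. For fits that leave out an array or a mouse it is given above in part only. Signal near the nonspecific controls limits what can be said of the dim collagens.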
